A study of Mus musculus with 8 samples.

Results

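Ubiquitin ligases and ligase adaptors of striated muscle were followed through 10 named genes, Fbxo32, Fbxo40, Trim54, Trim55, Trim63, Asb2, Asb8, Asb10, Asb14 and Asb15, each matched by its symbol in a deposited table of 24341 genes. They were chosen by name, as a group whose FPKM in Pos Cre libraries had already been seen to lie below that in Neg Cre libraries. RNA was sequenced from lysates of the mouse heart ventricle in 8 libraries. The 4 Pos Cre libraries came from male mice with Med13 and Med13L fl/fl alleles and a Cre recombinase that the study's title places in cardiomyocytes. The 4 Neg Cre libraries came from male mice with the same floxed alleles and no Cre. All mice were labelled 12 weeks old and received tamoxifen chow, and the series' design text puts sampling 4 weeks after tamoxifen. Both genes encode paralogous proteins that tie the kinase module to the Mediator complex, a bridge between transcription factors and RNA polymerase II. The labels give no name for the Cre line, and the Neg Cre mice lack Cre, so the presence of Cre and the loss of the floxed parts cannot be told apart. Numbers of libraries are those of the sample titles.

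Ubiquitin ligases mark proteins for breakdown by the proteasome, and striated muscle uses a set of its own. The F-box proteins Fbxo32 (atrogin-1) and Fbxo40 bring substrates to ligases built on cullin 1. The MuRF proteins, encoded by Trim63 (MuRF1), Trim55 (MuRF2) and Trim54 (MuRF3), carry a RING domain and act at the sarcomere and on microtubules. ASB proteins combine ankyrin repeats, which hold substrates, with a SOCS box, which binds elongins B and C and cullin 5. Fbxo32 and Trim63 are best known as genes induced by FoxO transcription factors in wasting muscle.

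The letters just before the start of transcription are shown for Asb14 and Asb2, the 2 genes with the largest change. They are also shown for Trim63, a gene induced by FoxO. These windows were picked because each holds a short motif of a muscle regulator. The part of such motifs in the lower levels was not tested. RefSeq promoters (GRCm38.p6, the build also called mm10) matched 8 of the 10 genes with 11 promoters, of which 250 bases before the start were searched on both strands. Fbxo32, also induced by FoxO, and Trim55 had no matching promoter and were not searched. Capitals mark a MEF2 element in Asb14, a CArG box, the element bound by serum response factor, in Asb2, and TGTTTAC, the reverse complement of the FoxO core GTAAACA, in Trim63.
Asb14, chr14:26894494-26894613, plus strand: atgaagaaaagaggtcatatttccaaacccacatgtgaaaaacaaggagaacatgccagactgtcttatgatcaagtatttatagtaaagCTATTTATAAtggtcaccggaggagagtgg
Asb2, chr12:103356002-103356121, minus strand: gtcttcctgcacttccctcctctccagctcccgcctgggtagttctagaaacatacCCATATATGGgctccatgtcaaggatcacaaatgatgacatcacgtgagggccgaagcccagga
Trim63, chr4:134314910-134315119, plus strand: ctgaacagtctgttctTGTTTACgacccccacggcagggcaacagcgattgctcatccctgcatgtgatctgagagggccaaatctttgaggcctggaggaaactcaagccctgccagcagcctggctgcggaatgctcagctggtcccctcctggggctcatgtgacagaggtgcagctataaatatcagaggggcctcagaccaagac

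The MEF2 element of Asb14 lay 30 to 21 bases before the start used by the promoter table. The deposited Asb14 locus begins at 26894604 and its RefSeq gene at 26894590, so the end of the window shown lies within the gene by both. The RefSeq start falls inside the MEF2 element itself, so its last bases lie within that gene. The other promoter with a MEF2 element was the upstream 1 of 2 of Fbxo40, outside the deposited locus. Over all 32851 mouse promoters, 2.92% held a MEF2 element in the same window, against 2 of the 11 promoters here. The CArG box of Asb2, 64 to 55 bases before the start, was of a kind found in 1.47% of all promoters, and GTAAACA, 194 to 188 bases before the start of Trim63, was found in 3.17%. The TEAD motif GGAATG stood in 4 of the 11 promoters (Asb8, Asb10, Trim54 and Trim63) and in 12.6% of all promoters. The E-box CAGCTG stood in 4 of the 11 (2 of Fbxo40, 1 each of Trim54 and Trim63) and in 13.0% of all. TNAAGGTCA, the motif of estrogen-related receptors, stood in 0 of the 11 and in 1.14% of all. No match overlapped one of another motif. These are matches of letters and were not tested as binding sites.

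Levels are FPKM, which scale fragments by transcript length and by library size, so genes can be set side by side. The table holds no fragment counts. Depth estimated from the value of a single fragment was 4520000 to 23500000 fragments in Pos Cre libraries and 5510000 to 15300000 in Neg Cre libraries. Rn45s, a ribosomal precursor, stood at 396 to 1053 FPKM in 5 libraries (Pos Cre 1 and 2, Neg Cre 1, 3 and 4) and at 10.3 to 16.0 FPKM in the other 3, which hold a single Neg Cre library (2). Both targeted genes were lower in each Pos Cre library: Med13 averaged 8.13 ± 0.554 FPKM in Pos Cre and 12.0 ± 2.23 FPKM in Neg Cre libraries, and Med13l 2.52 ± 0.113 and 4.92 ± 0.814 FPKM in Pos Cre and Neg Cre libraries (SD, n = 4 per group, limma adjusted p = 0.00612 and 3.18e-04). The values span whole genes, so they do not show the deleted parts.

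All 10 genes had lower levels in Pos Cre than in Neg Cre ventricles, and for each of them every Pos Cre library lay below every Neg Cre library. By group means the ASB genes Asb14 and Asb2 differed most: Asb14 in Pos Cre libraries was at 22.3% of its Neg Cre level and Asb2 at 43.8%. The MuRF genes differed least by means, with Trim55 at 80.9% and Trim54 at 79.7%. The genes were chosen with this contrast already known, so the values describe the table and no p-value is given for them. In the fit over all genes, all 10 were past the threshold as lower, where 19.4% of the 11688 tested genes were, and 18.7% of tested genes had each Pos Cre library below each Neg Cre library. All 10 averaged 1 FPKM or more across the 8 libraries and so entered the fit. In lysates of a whole ventricle, fewer cardiomyocytes and less of a transcript per cardiomyocyte cannot be told apart.

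**Figure D1:**
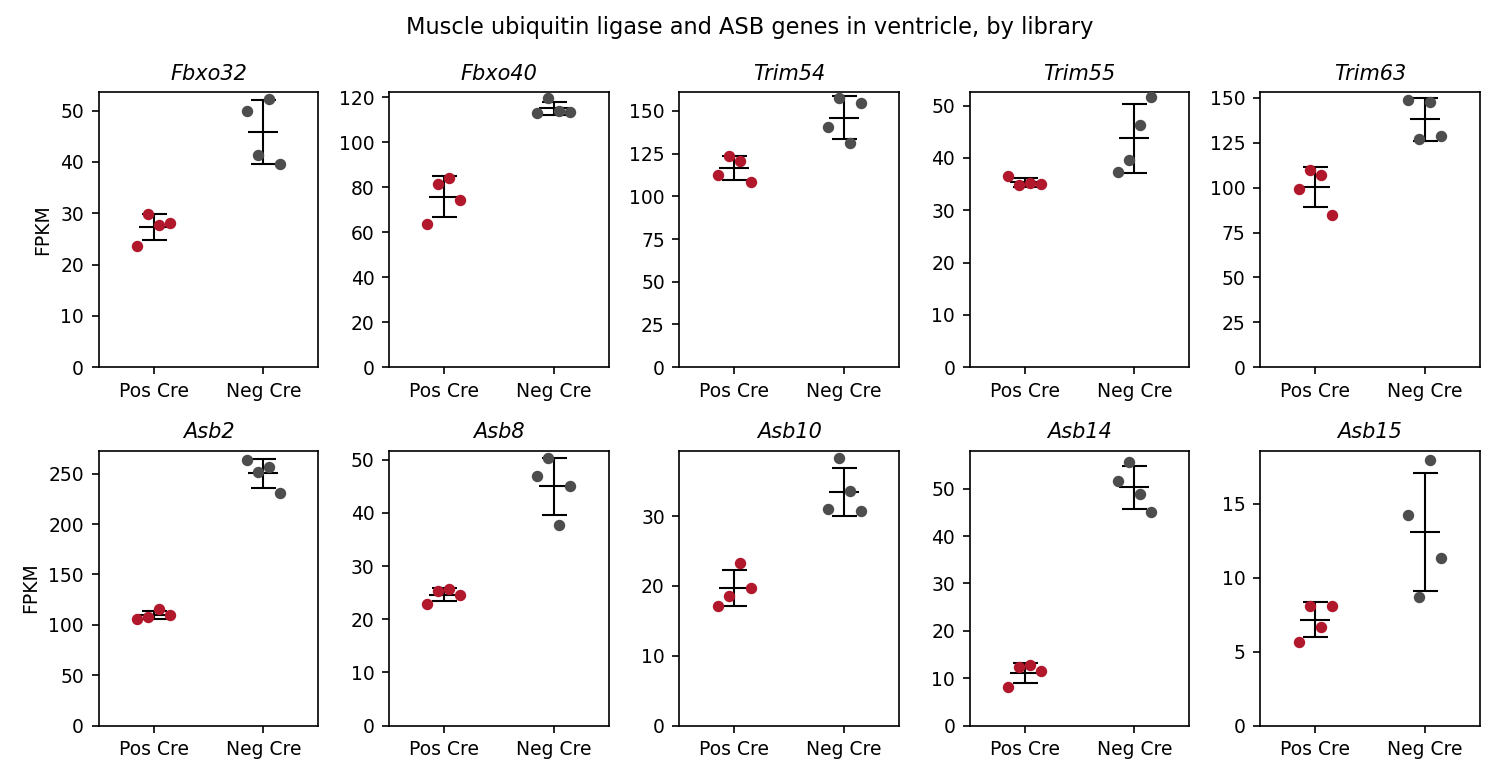
FPKM (vertical axes, from 0) of the 10 genes in 4 Pos Cre and 4 Neg Cre libraries; points are libraries 1 to 4 from left to right, and bars give mean and SD. Asb14 lay between 8.17 and 12.8 FPKM in Pos Cre and between 45.1 and 55.7 FPKM in Neg Cre libraries, while the groups nearly touched for Trim55 and Asb15.

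Asb14 (chromosome 14, 26894604 to 26915257, mm10), an ASB gene of striated muscle, had 8.17, 12.3, 12.8 and 11.5 FPKM in Pos Cre libraries 1 to 4, against 51.6, 55.7, 48.8 and 45.1 FPKM in Neg Cre libraries 1 to 4. The groups were far apart, with the highest Pos Cre value at 28.4% of the lowest Neg Cre value. Its mean was 11.2 ± 2.09 FPKM in Pos Cre and 50.3 ± 4.49 FPKM in Neg Cre libraries (SD, n = 4 per group), and its log2 change on the log2(FPKM + 1) scale was -2.09, SE 0.13. Of all tested genes, 35 had a more negative log2 change. The lowest value, in Pos Cre library 1, rests on an estimated 76.1 fragments, which gives a counting error of 11.5%.

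Asb2 (chromosome 12, 103321142 to 103356001), the adaptor that directs filamins to breakdown during muscle differentiation, had 106, 108, 116 and 109 FPKM in Pos Cre libraries 1 to 4, against 264, 252, 257 and 230.4 FPKM in Neg Cre libraries 1 to 4. Spread within groups was small beside the distance between them, with a coefficient of variation of 3.90% in Pos Cre and 5.74% in Neg Cre libraries. The mean was 109.7 ± 4.28 FPKM in Pos Cre and 251 ± 14.4 FPKM in Neg Cre libraries (SD, n = 4 per group; log2 change -1.18, SE 0.07).

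The other 3 ASB genes differed by less. Asb8 (chromosome 15, 98134640 to 98165578) had 23.0, 25.2, 25.7 and 24.6 FPKM in Pos Cre libraries 1 to 4, against 47.0, 50.3, 37.7 and 45.0 FPKM in Neg Cre libraries 1 to 4 (log2 change -0.84, SE 0.09). Asb10 (chromosome 5, 24532697 to 24540448), whose human counterpart has been studied in glaucoma, had 17.2, 18.6, 23.3 and 19.8 FPKM in Pos Cre libraries 1 to 4, against 31.1, 38.3, 33.6 and 30.8 FPKM in Neg Cre libraries 1 to 4 (log2 change -0.74, SE 0.11). Groups were well apart for both genes, and Neg Cre library 2 was the highest of its group for each.

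Asb15 (chromosome 6, 24528144 to 24573164), another ASB gene of striated muscle, was the least abundant of the 10 and the most variable among Neg Cre libraries. It had 5.68, 8.11, 6.69 and 8.11 FPKM in Pos Cre libraries 1 to 4, against 14.3, 8.71, 18.0 and 11.4 FPKM in Neg Cre libraries 1 to 4. Neg Cre library 2 lay just above the highest Pos Cre library, by 0.593 FPKM. The log2 change was -0.76, SE 0.19, and it was -0.97 among the 5 libraries with high Rn45s and -0.21 among the 3 with low Rn45s, where Neg Cre library 2 is the sole Neg Cre library. Its fewest estimated fragments were 112, in Pos Cre library 1.

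Fbxo32 (chromosome 15, 58175879 to 58214892), which encodes atrogin-1, the F-box protein that marks atrophying muscle, had 23.6, 29.8, 27.7 and 28.1 FPKM in Pos Cre libraries 1 to 4, against 49.9, 41.4, 52.2 and 39.6 FPKM in Neg Cre libraries 1 to 4. Its mean was 27.3 ± 2.60 FPKM in Pos Cre and 45.8 ± 6.22 FPKM in Neg Cre libraries (SD, n = 4 per group; log2 change -0.72, SE 0.11). Neg Cre libraries fell into a higher pair, 1 and 3, and a lower pair, 2 and 4, both above all Pos Cre libraries. An antisense gene in the reference annotation, Gm15943, shares 186 exonic bases with Fbxo32, 178 of whose 6927 words of 50 bases recur in other genes, and no source used here says whether counting used strand.

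Fbxo40 (chromosome 16, 36966073 to 36979136), an F-box protein of muscle known for directing the insulin receptor substrate Irs1 to breakdown, had 63.7, 81.3, 84.1 and 74.3 FPKM in Pos Cre libraries 1 to 4, against 113, 119.5, 114 and 113 FPKM in Neg Cre libraries 1 to 4. Its Neg Cre libraries were the most alike of any of the 10 genes in that group, with a coefficient of variation of 2.66%, and its Pos Cre libraries spread more, at 11.9%. The log2 change was -0.60, SE 0.09.

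Trim63 (chromosome 4, 134315120 to 134329629), which encodes MuRF1, a ligase for thick filament proteins, had 99.4, 109.6, 107 and 84.7 FPKM in Pos Cre libraries 1 to 4, against 149, 127, 148 and 129 FPKM in Neg Cre libraries 1 to 4. The highest Pos Cre library reached 86.3% of the lowest Neg Cre library. Mean levels were 100.2 ± 11.2 FPKM in Pos Cre and 138 ± 11.9 FPKM in Neg Cre libraries (SD, n = 4 per group; log2 change -0.46, SE 0.10).

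Trim54 (chromosome 5, 31116612 to 31137626), which encodes MuRF3, known for binding and stabilising microtubules, had 113, 124, 121 and 109 FPKM in Pos Cre libraries 1 to 4, against 141, 158, 131 and 155 FPKM in Neg Cre libraries 1 to 4. The log2 change was -0.32, SE 0.08, and it was -0.26 among the libraries with high Rn45s and -0.46 among those with low Rn45s. With the 5 high-Rn45s libraries alone the call was lost. Of its 1432 words of 50 bases, 264 are shared with the antisense gene Gm15469, so its level is uncertain if strand was not used. None of its words of that length is shared with Trim55 or Trim63.

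Trim55 (chromosome 3, 19644460 to 19691599), which encodes MuRF2, a sarcomere-associated ligase, had 36.6, 34.8, 35.1 and 34.9 FPKM in Pos Cre libraries 1 to 4, against 37.3, 39.6, 46.4 and 51.7 FPKM in Neg Cre libraries 1 to 4. Pos Cre libraries were nearly equal, while Neg Cre libraries spread more widely, and the groups were parted by 0.672 FPKM. The log2 change was -0.29, SE 0.10, the smallest of the 10. Its call as lower was lost without Neg Cre library 4 (log2 change -0.20), without Neg Cre library 3 (-0.26) and without any 1 of Pos Cre libraries 1 to 4 (-0.30, -0.28, -0.28 and -0.28). Its log2 change was -0.32 where Rn45s was high and -0.17 where it was low.

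Calls of the genes with smaller changes depended on the scale. Deposited FPKM of all genes summed to 460601 to 478667 in Pos Cre and 545102 to 612162 in Neg Cre libraries. For a second scale each library was brought to a fixed FPKM sum, counted without Rn45s, other structural or small RNAs and ribosomal protein genes. With this fixed sum the median log2 change of all tested genes became 0.26, against -0.0070 as deposited. On that scale Trim55 stood at 0.013, Trim54 at -0.015 and Trim63 at -0.16, and none of these was called and the sign of Trim55 turned. Asb15 (-0.48) also lost its call with the fixed sum. Asb14 (-1.79), Asb2 (-0.88), Asb8 (-0.54), Asb10 (-0.44), Fbxo32 (-0.42) and Fbxo40 (-0.30) kept theirs on that scale. Relative to the median of all genes with the fixed sum, the log2 changes ran from -2.05 for Asb14 to -0.24 for Trim55. With quantile normalization the log2 changes were -0.22 for Trim54, -0.27 for Trim55 and -0.35 for Trim63, and Trim55 lost its call. The median over the 10 genes was -0.73 as deposited and -0.43 with the fixed sum.

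**Figure D2:**
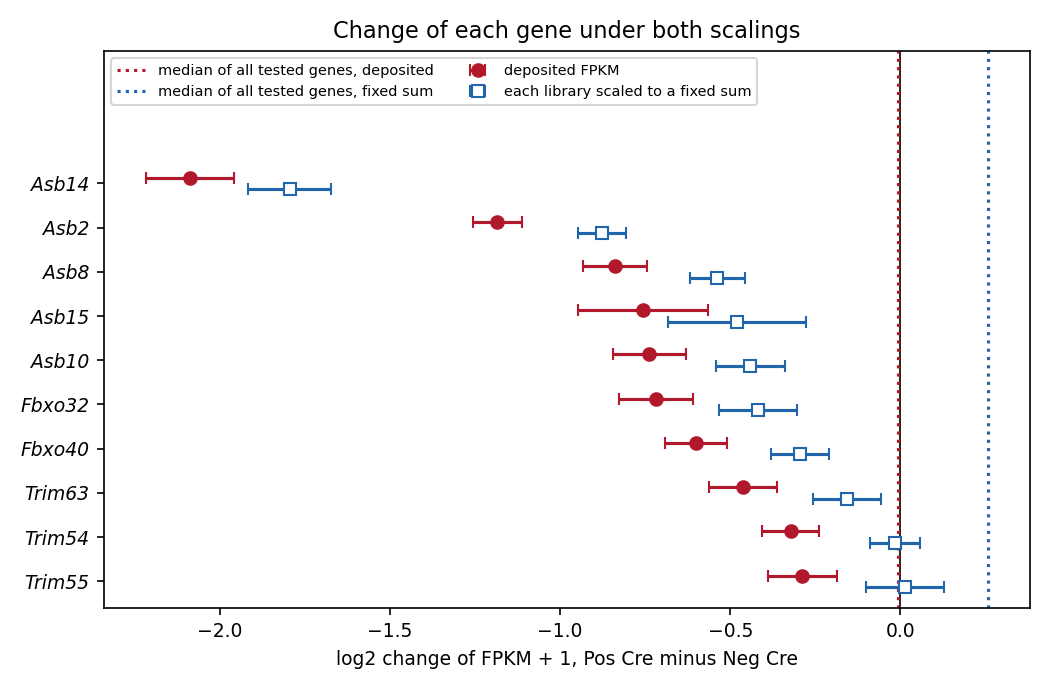
Log2 change of FPKM + 1 (horizontal axis), Pos Cre minus Neg Cre, for each gene as deposited (filled) and after scaling each library to a fixed sum (open), with bars of 1 SE; dotted lines give the median of all tested genes on each scale. All 10 genes lie left of the dotted line of their own scale, from -2.09 for Asb14 to -0.29 for Trim55 as deposited, and Trim55 alone turns to a positive value (0.013) with the fixed sum.

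The order of abundance among the 10 genes differed between groups. In Pos Cre libraries Trim54 (116 FPKM), Asb2 (109.7) and Trim63 (100.2) led, and the ranges of neighbours in this order overlapped. In Neg Cre libraries Asb2 led at 251 FPKM, clear of Trim54 (146) and Trim63 (138), whose ranges overlapped. Fbxo40 had rank 4 in both groups and stood apart from its neighbours in both. Asb14 had rank 9 in Pos Cre libraries and rank 5 in Neg Cre libraries, where its range overlapped that of Fbxo32, the next gene. In Pos Cre libraries Trim55 came next after Fbxo40 and apart from it and from Fbxo32, followed by Fbxo32, Asb8 and Asb10, whose neighbouring ranges overlapped. In Neg Cre libraries the neighbouring ranges of Fbxo32, Asb8, Trim55 and Asb10 overlapped in this order. Asb15 was last and apart in both groups.

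Summed over the 10 genes, levels were 528 ± 32.2 FPKM in Pos Cre and 881 ± 20.7 FPKM in Neg Cre libraries (SD, n = 4 per group). The ASB genes gave 32.7% ± 1.34 of that sum in Pos Cre and 44.5% ± 1.34 in Neg Cre libraries, and the shares of single libraries did not overlap. The MuRF genes gave 47.8% ± 2.09 in Pos Cre and 37.2% ± 1.44 in Neg Cre libraries. The F-box genes gave 19.5% ± 1.27 in Pos Cre and 18.2% ± 0.35 in Neg Cre libraries, with overlapping ranges. Multiplying a whole library by a single factor leaves these shares unchanged, while quantile normalization can change them.

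**Figure D3:**
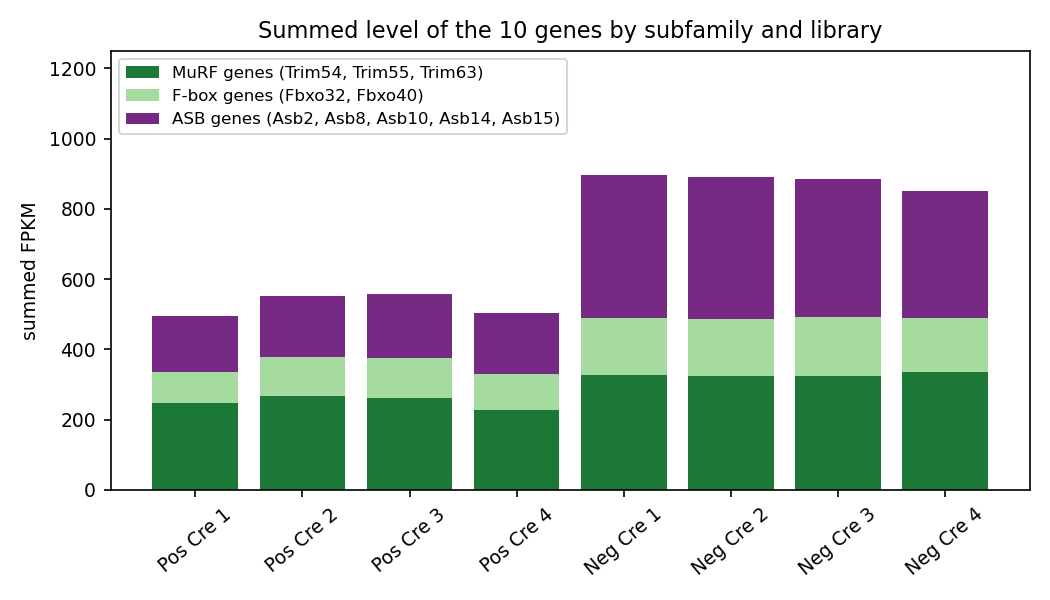
Summed FPKM (vertical axis, from 0) of the 10 genes in each library, Pos Cre left of Neg Cre, split into MuRF, F-box and ASB genes. The ASB part is 160 to 184 FPKM in Pos Cre and 363 to 408 FPKM in Neg Cre libraries, while the MuRF part is 228 to 268 FPKM in Pos Cre and 324 to 335 FPKM in Neg Cre libraries.

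Among Pos Cre libraries, number 1 had the lowest value for 7 of the 10 genes (both F-box genes and all 5 ASB genes) and number 3 the highest for 5. Library Pos Cre 1 also had the lowest estimated depth of all 8 and the highest Rn45s. Without it the log2 changes were -1.96 for Asb14, -1.17 for Asb2, -0.65 for Fbxo32 and -0.52 for Fbxo40. Within the high-Rn45s libraries the log2 changes of the 10 genes ran from -2.16 (Asb14) to -0.26 (Trim54), and within the low-Rn45s libraries from -2.11 (Asb14) to -0.17 (Trim55). Fbxo32 stood at -0.80 and -0.55 in these 2 sets. In the Neg Cre group, library 4 was lowest for 4 genes and library 2 highest for 5.

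Markers of cardiomyocytes, the heart cells in which these ligases are best known, were lower in Pos Cre ventricles as well. Of 12 fixed cardiomyocyte markers 9 were called lower and 0 higher, at a median log2 change of -1.59, beside 19.4% and 19.7% of all tested genes. Summed over the 11 markers with a value in all libraries (without Ttn, which has no number in 2 Pos Cre libraries), they stood at 31814 to 32793 FPKM in Pos Cre and 74387 to 79074 FPKM in Neg Cre libraries, and none was near 0. The ventricular light chain Myl2 averaged 6941 FPKM in Pos Cre and 20614 FPKM in Neg Cre libraries, while the atrial Myl7 ran over 0.0848 to 19.6 FPKM in Pos Cre and 0.358 to 58.2 FPKM in Neg Cre libraries. The cardiac actin Actc1, at 10513 FPKM in Pos Cre and 10403 FPKM in Neg Cre libraries, was not called. The part of these markers in the lower ligase levels was not tested.

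Skeletal muscle also expresses these ligases. Of 13 skeletal markers 8 stayed under 0.5 FPKM in every library, among them the myosins Myh1, Myh2 and Myh4 and the Z-disc gene Actn3. Tnnt3, Myl1 and Casq1, the 3 that passed the filter, were called higher in Pos Cre libraries and made up most of a summed level of 415 to 520 FPKM in Pos Cre and 116 to 144 FPKM in Neg Cre libraries. Tnnt3, at 6.95 FPKM in Pos Cre and 0.142 FPKM in Neg Cre libraries, passed only through its Pos Cre values. Tnni2 went the other way, at 0.173 FPKM in Pos Cre and 1.45 FPKM in Neg Cre libraries, and was not tested. Myl1, a fast myosin light chain, averaged 369.9 FPKM in Pos Cre and 103 FPKM in Neg Cre libraries. Atrial markers summed to 2673 to 4664 FPKM in Pos Cre and 525 to 733 FPKM in Neg Cre libraries, mostly from Nppa, with 2 of 6 called higher and 1 lower. Of 10 fibroblast markers 6 were higher and 1 lower (1596 to 1923 FPKM in Pos Cre, 1166 to 1273 FPKM in Neg Cre libraries), and of 10 smooth muscle and pericyte markers 4 were higher and 1 lower (962 to 1409 FPKM in Pos Cre, 498 to 638 FPKM in Neg Cre libraries). The difference in this last sum came mostly from Acta2, at 779 FPKM in Pos Cre and 194 FPKM in Neg Cre libraries. The median log2 change of the smooth muscle and pericyte markers was 0.01. Endothelial markers had 4 of 10 lower and 0 higher (884 to 1022 FPKM in Pos Cre, 1351 to 1472 FPKM in Neg Cre libraries), and of 8 tested macrophage and lymphoid markers 5 were lower and 0 higher (139.8 to 209 FPKM in Pos Cre, 233 to 286 FPKM in Neg Cre libraries). Most of the endothelial sum was Fabp4, at 615 FPKM in Pos Cre and 972 FPKM in Neg Cre libraries. With the fixed sum the median log2 changes were 0.014 for endothelial markers, in place of -0.28, and -0.27 for macrophage and lymphoid markers, in place of -0.56, while those of cardiomyocyte and fibroblast markers were -1.28 and 0.78. These marker counts stand beside 19.4% of all tested genes called lower and 19.7% called higher. The part of these cell types in the ligase levels was not tested.

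The remaining ASB genes did not all move like the 5 above. Those 5 were chosen with their lower Pos Cre levels known, so their shared direction came with the choice. Of 13 others with a deposited value, 10 were tested, and of these 4 fell and 2 rose, at a median log2 change of -0.06, beside 19.4% of all tested genes that fell and 19.7% that rose. Asb5 fell to 6.13 ± 0.519 FPKM in Pos Cre, against 15.2 ± 0.352 FPKM in Neg Cre libraries (SD, n = 4 per group; log2 change -1.19, SE 0.08) (limma adjusted p = 2.54e-06). Asb11, the most abundant of them, fell to 74.8 ± 5.87 FPKM in Pos Cre, against 116 ± 20.4 FPKM in Neg Cre libraries, and Asb12 to 6.66 ± 1.42 FPKM in Pos Cre, against 11.5 ± 1.36 FPKM in Neg Cre libraries (limma adjusted p = 0.00312 and 0.00253). Asb1, an ASB gene expressed in many tissues, rose to 8.75 ± 1.03 FPKM in Pos Cre, against 5.03 ± 0.621 FPKM in Neg Cre libraries (limma adjusted p = 5.3e-04). In the high-Rn45s libraries alone the call of Asb11 was lost (log2 change -0.44, and -0.97 in the low-Rn45s libraries). Asb12 stood at -0.93 where Rn45s was high and -0.48 where it was low. The count of rises was 1 without Pos Cre library 2, 3 or 4 or without Neg Cre library 4.

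Parts shared by many ligases went both ways. Among 21 tested genes of the cullin and neddylation machinery 3 rose and 3 fell, at a median log2 change of 0.06. Of all tested genes 19.7% rose and 19.4% fell. Cul5, the cullin that ASB proteins bind, fell to 18.9 ± 0.697 FPKM in Pos Cre, against 25.4 ± 1.77 FPKM in Neg Cre libraries, and Tceb2, elongin B, rose to 380.5 ± 19.7 FPKM in Pos Cre, against 294 ± 37.5 FPKM in Neg Cre libraries (SD, n = 4 per group, limma adjusted p = 0.00177 and 0.0105). Cand1, which exchanges the substrate receptors of cullin ligases, rose to 13.0 ± 0.879 FPKM in Pos Cre, against 8.55 ± 0.0948 FPKM in Neg Cre libraries, and Cul4b to 9.33 ± 0.761 FPKM in Pos Cre, against 6.42 ± 1.12 FPKM in Neg Cre libraries (limma adjusted p = 2.12e-04 and 0.00718). With the fixed sum 15 of the 21 rose and 0 fell, and Cul5 was no longer called (log2 change -0.11). On that scale 5351 of all 11688 tested genes rose and 1028 fell.

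Of 19 ubiquitin, E1 and E2 genes 3 rose and 3 fell, at a median log2 change of -0.0059. The shares over all tested genes were 19.7% and 19.4%. Uba1, the main ubiquitin-activating enzyme, rose to 85.9 ± 4.98 FPKM in Pos Cre, against 65.0 ± 3.55 FPKM in Neg Cre libraries (limma adjusted p = 0.00180). Ubiquitin-conjugating enzymes were among those that fell, with Cdc34 at 56.1 ± 3.09 FPKM in Pos Cre and 87.3 ± 11.3 FPKM in Neg Cre libraries and Ube2b at 87.0 ± 6.64 and 126 ± 9.34 FPKM in Pos Cre and Neg Cre libraries (SD, n = 4 per group, limma adjusted p = 6.89e-04 and 6.35e-04). Ube2d1 fell by 0.36 on the log2 scale (limma adjusted p = 0.00954) and lost its call with the fixed sum (-0.07) and in the high-Rn45s libraries alone (-0.34). Without Neg Cre library 1, the count of rises was 1.

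Other ligases known from muscle went both ways. Of 28 tested 6 rose and 8 fell, at a median log2 change of -0.0032, beside 19.7% and 19.4% of all tested genes. Fbxo31 fell to 6.44 ± 1.05 FPKM in Pos Cre, against 17.1 ± 2.41 FPKM in Neg Cre libraries, and Fbxw7, the receptor of a ligase for Myc and cyclin E, to 16.8 ± 1.26 FPKM in Pos Cre, against 34.8 ± 3.57 FPKM in Neg Cre libraries (SD, n = 4 per group, limma adjusted p = 2.99e-05 and 1.57e-05). Rnf207, which affects cardiac repolarization, fell by 0.74 and Trim72 (MG53), a protein of membrane repair, by 0.52 on the log2 scale (limma adjusted p = 0.00168 and 0.00496), and Trim72 was not called with the fixed sum (-0.21). Rnf207 stood at -0.97 among libraries rich in Rn45s and at -0.28 among those poor in it. Fbxo25, the closest relative of Fbxo32, rose to 11.2 ± 1.52 FPKM in Pos Cre, against 7.63 ± 1.36 FPKM in Neg Cre libraries (limma adjusted p = 0.0114), with overlapping ranges, and was named after its values were seen. With the fixed sum 15 rose and 3 fell, where 5351 of all 11688 tested genes rose and 1028 fell.

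KLHL and KBTBD adaptors of muscle, which bind cullin 3, mostly fell: 7 of 10 were lower and 1 higher, at a median log2 change of -0.57. Among all tested genes 19.4% were lower and 19.7% higher. Klhl38 fell to 7.66 ± 0.541 FPKM in Pos Cre, against 18.0 ± 1.47 FPKM in Neg Cre libraries (SD, n = 4 per group, limma adjusted p = 5.46e-06), and Klhl33 to 1.11 ± 0.384 FPKM in Pos Cre, against 4.00 ± 0.768 FPKM in Neg Cre libraries (limma adjusted p = 1.26e-04). Klhl34 and Kbtbd13 fell by 0.89 and 0.84 on the log2 scale (limma adjusted p = 0.00187 and 9.16e-04). Kbtbd13, counted among the 7, averaged 0.720 FPKM in Pos Cre and 2.12 FPKM in Neg Cre libraries. It thus passed the filter of 1 FPKM only through its Neg Cre values. The 1 that rose was Klhl41, a sarcomere-associated adaptor, at 85.3 ± 5.45 FPKM in Pos Cre and 53.3 ± 4.58 FPKM in Neg Cre libraries (limma adjusted p = 1.31e-04). Without Pos Cre library 1, 2 rose.

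**Figure D4:**
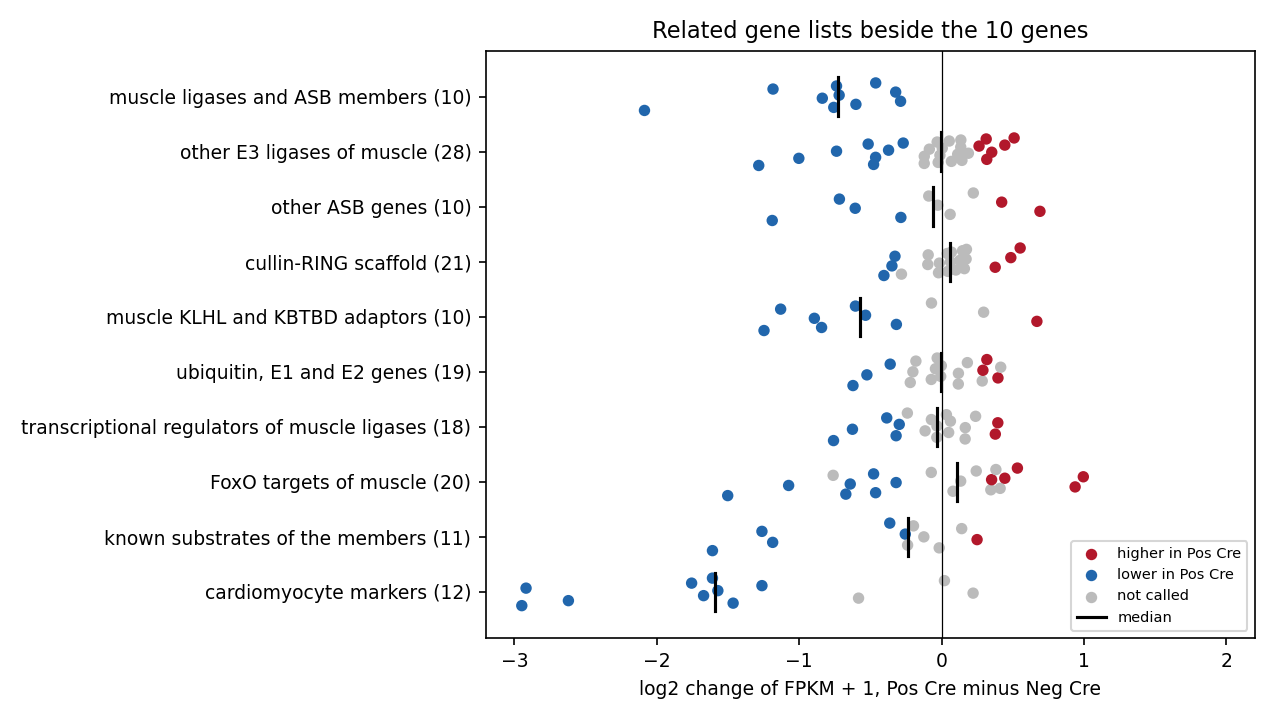
Log2 change of FPKM + 1 (horizontal axis), Pos Cre minus Neg Cre, of each tested gene in the 10 genes, in 8 related lists and in the cardiomyocyte markers, with the number of genes in brackets; colours give the call over all genes and black bars the median. The 10 genes, chosen with this contrast known, lie at a median of -0.73. The KLHL and KBTBD adaptors lie at -0.57 and the cardiomyocyte markers at -1.59, while most other lists straddle 0.

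Of 18 tested regulators of these ligases 5 fell and 2 rose, at a median log2 change of -0.03, beside 19.4% of all tested genes that fell and 19.7% that rose. Among the FoxO factors Foxo3 fell to 15.2 ± 1.20 FPKM in Pos Cre, against 19.0 ± 1.61 FPKM in Neg Cre libraries (SD, n = 4 per group, limma adjusted p = 0.0220), while Foxo1 stood at 3.29 ± 0.222 and 4.13 ± 0.980 FPKM in Pos Cre and Neg Cre libraries and was not called. Both were named after their values were seen, and with the fixed sum Foxo3 stood at -0.0053 and was not called. Ppargc1a, a coactivator that restrains FoxO activity in muscle, and Hdac4, a class II histone deacetylase, fell by 0.76 and 0.63 on the log2 scale (limma adjusted p = 3.82e-04 and 7.86e-04). Rela, a subunit of NF-kappaB, rose by 0.40 (limma adjusted p = 0.00176), and Mef2a fell by 0.38 (limma adjusted p = 0.0233). The call of Mef2a was lost with the fixed sum (log2 change -0.08) and with quantile normalization (-0.34), and also without Pos Cre library 3 (log2 change -0.38) or 4 (-0.36) and without Neg Cre library 1 (-0.37) or 4 (-0.39). Where Rn45s was high Mef2a stood at -0.44 and Hdac4 at -0.76, and where it was low at -0.12 and -0.34. Counts of falls were 3 without Pos Cre library 2, 3 or 4 and 2 without Neg Cre library 1.

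Other genes induced by FoxO in muscle did not share 1 direction. Of 20, 7 fell and 5 rose, at a median log2 change of 0.11, beside 19.4% and 19.7% of all tested genes. Txnip, which binds thioredoxin, fell to 143 ± 36.3 FPKM in Pos Cre, against 413 ± 123 FPKM in Neg Cre libraries, and Gadd45a to 5.39 ± 1.36 FPKM in Pos Cre, against 12.4 ± 2.53 FPKM in Neg Cre libraries (SD, n = 4 per group, limma adjusted p = 4.88e-04 and 5.76e-04). Txnip stood at -1.10 where Rn45s was high and -2.22 where it was low. Eif4ebp1, the translation repressor 4E-BP1, rose to 140.5 ± 8.68 FPKM in Pos Cre, against 69.9 ± 3.77 FPKM in Neg Cre libraries, and the autophagy gene Gabarapl1 to 146 ± 12.7 FPKM in Pos Cre, against 75.9 ± 4.87 FPKM in Neg Cre libraries (limma adjusted p = 5.3e-06 and 1.56e-05).

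Transcripts of proteins known as substrates of these ligases were lower or not called, with 1 exception. Of 11 tested 5 fell and 1 rose, at a median log2 change of -0.24, beside 19.4% and 19.7% of all tested genes. The largest falls were those of Myh6, Tnni3 and Ckm, substrates of MuRF proteins and also cardiomyocyte genes, by 1.61, 1.26 and 1.19 on the log2 scale (limma adjusted p = 1.04e-05, 1.94e-06 and 1.41e-05). Ppp3cb, a calcineurin subunit, fell by 0.36 (limma adjusted p = 0.0125) and was not called with the fixed sum (-0.08); it stood at -0.46 where Rn45s was high and -0.12 where it was low. Flna, a target of Asb2, rose to 45.7 ± 3.80 FPKM in Pos Cre, against 38.3 ± 2.52 FPKM in Neg Cre libraries (SD, n = 4 per group, limma adjusted p = 0.0360). It was named after its values were seen, and its groups overlapped. Without Pos Cre library 1, 3 or 4, or Neg Cre library 1, 3 or 4, the count of rises was 0. Irs1, the target of Fbxo40, stood at 8.93 ± 1.19 and 10.7 ± 1.22 FPKM in Pos Cre and Neg Cre libraries and was not called.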

How the data were processed

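The authors deposited gene-level FPKM for 8 libraries of ribosome-depleted, stranded total RNA, per the labels. Bowtie2 2.2.6, Cufflinks and the build mm10 are named in the submitters' processing notes. Settings, annotation, strand use and any earlier filter are named in no source used here. The lowest value is 0.01 FPKM. In 6 cells of 3 genes (Ttn among them) a word replaces the number, and these were treated as missing. Nothing states that libraries of a group came from separate mice, so n counts libraries. The p-values set the difference between groups against the spread between libraries. The deposited column names of Neg Cre libraries 1 and 2 both hold the mark 2M, which no source used here explains. Whether these libraries share a mouse is not known, and p-values could be too small if they do.

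Groups were compared with limma 3.58.1 in R 4.3.3 (variance trend, Benjamini-Hochberg adjustment) on log2(FPKM + 1), which understates changes of low genes, over 11688 genes averaging 1 FPKM or more across the 8 libraries. Calls needed an adjusted p below 0.05. The pipeline was tested on simulated data. An exact two-sided permutation test over 70 assignments of libraries gave 0.0286, the smallest p possible, for 31 of the 32 list genes named by rule and 0.0571 for the other, Mef2a. Of list genes picked after their values were seen, it gave 0.0571 for Fbxo25, Flna and Irs1 and 0.114 for Foxo1. Depth was estimated from FPKM times transcript length in 3664 genes with 1 GENCODE M21 transcript of 500 to 4000 bases, and counting error covers counting only. Fragment estimates use the longest transcript. Loci are those deposited, with starts counted from 1.

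The members, gene lists and motifs were chosen with earlier results of these data, or the promoters, known. Named were all members, Med13, Med13l, up to 4 called genes of largest change per list, and 3 nearest profiles of Fbxo32 and Asb2. Further named genes, and those of the marker lists, were picked after their values were seen.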

Additional observations from a re-analysis of the deposited data

Results flagged for a closer look

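Across 88 groups of 4 libraries (44 genes in 2 groups), 4 held a library set far apart from the other 3, where chance gives about 1 in 20. Ckm was at 625 FPKM in Pos Cre library 1. Cul5 was at 22.8 FPKM in Neg Cre library 2, nearer to the Pos Cre values than the other Neg Cre libraries. Med13l was at 6.13 FPKM in Neg Cre library 3, the highest of its group. Tnni3 was at 7882 FPKM in Neg Cre library 1. None of the 10 ligase and ASB genes held such a library in either group.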

How the results depend on the processing

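Under 17 alternatives for each of the 10 genes, Asb2, Asb8, Asb10, Asb14, Fbxo32 and Fbxo40 kept their direction and call. Fixed-sum scaling gave 5351 genes higher and 1028 lower in place of 2307 and 2269 (83.9% of calls higher, against 50.4%), called 6 of the 10 genes, and turned Trim55 to 0.013; Trim54, Trim63 and Asb15 lost their calls, and Trim54 also in the high-Rn45s libraries alone. Trim55 lost its call in 12 further alternatives. With the fixed sum, rises and falls were 15 and 3 for other ligases, 15 and 0 for the cullin list, 9 and 2 for regulators, 11 and 4 for FoxO targets and 2 and 3 for substrates, and rises were 11 for ubiquitin genes and 2 for KLHL adaptors. In the high-Rn45s libraries alone, rises were 3 for other ligases, 1 for other ASB genes, 1 for regulators and 0 for substrates, and falls were 2 for other ASB genes and 3 for regulators. A minimum mean of 5 FPKM, which tests fewer genes, left 1 rise of other ASB genes and 4 falls of KLHL adaptors, and quantile normalization gave 2 rises of substrates. Leaving out 1 library gave 9 to 10 of the 10 genes, 1 to 2 rises of other ASB genes and of KLHL adaptors, 1 to 3 of ubiquitin genes and 0 to 1 of substrates, and 2 to 5 falls of regulators. Sample numbers did not pair the libraries (correlations of same-numbered libraries -0.162 to -0.0776). With a replicate block, 9 of the 10 genes were called, with 1 rise of other ASB genes, 3 falls of regulators and 0 rises of substrates. Other causes of these differences were not tested. Depth limits Asb14 and Asb15 most, with 76.1 and 112 estimated fragments in Pos Cre library 1.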

Other observations

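Genes outside the lists followed Fbxo32 and Asb2 closely over the 8 libraries. Likeness was the root mean square difference of log2(FPKM + 1), each gene centred on its Neg Cre mean. Nearest to Asb2 were Egln1 (0.0387), a prolyl hydroxylase that senses oxygen, Entpd5 (0.0735) and Ptcd3 (0.0826), a protein of mitochondrial translation. Egln1 stood at 44.6 ± 1.25 FPKM in Pos Cre and 104 ± 4.91 FPKM in Neg Cre libraries (SD, n = 4 per group). Nearest to Fbxo32 were Rtn4ip1 (0.0815), Pabpc4 (0.0841), a poly(A)-binding protein, and Dlst (0.0907), a subunit of the oxoglutarate dehydrogenase of the TCA cycle. Dlst stood at 173 ± 8.78 FPKM in Pos Cre and 292 ± 17.2 FPKM in Neg Cre libraries. These genes were picked for the match, so it is a description.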
